A study of Mus musculus with 7 samples.

Results

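The 45 genes described here copy DNA and supply its building blocks in S phase, the part of the cell cycle in which the genome is duplicated. They comprise the MCM helicase subunits, the origin recognition complex, the licensing factors, the helicase activators, the replicative polymerases with their clamp and single-strand binding proteins, the enzymes that join lagging strand fragments, and 4 enzymes of deoxynucleotide synthesis. The genes were taken by symbol from a list chosen by function, and not by their values. All 45 were among the 24341 genes of the deposited table, and all 45 passed the filter on low values that left 10541 genes to test. For 10 of them (Mcm7, Orc3, Orc4, Orc5, Gins2, Pold1, Pold2, Rfc4, Lig1 and Tk1) the table lists the same locus as for another gene, and whether strand was used in the counting is not given in the sources used here, so their values are less certain.

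RNA was measured in B-cell precursors (BCP) that had been sorted from spleens of the Eμ-Ret strain, hemizygous on a BALB/c background for a Ret fusion transgene that is driven by the immunoglobulin heavy chain enhancer. Preleukemic samples (n = 4) came from young mice that were healthy, and leukemic samples (n = 3) from older mice that were moribund with overt disease. Both groups carried the transgene, so no sample shows the level in normal BCP, and age cannot be told apart from disease. Values are FPKM, fragment numbers divided by transcript length and sequencing depth, which allow levels of different genes to be compared per length. The low values of the table imply a depth of 13.6 to 15.95 M fragments per sample. In the series design the cells are described as positive for BP-1, an enzyme on the surface of immature B cells.

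Origins of replication are prepared in G1 when the origin recognition complex (ORC), with Cdc6 and Cdt1, loads a ring of MCM proteins onto DNA. Cdc45 and the GINS complex then turn the ring into an active helicase, polymerase alpha-primase starts each new strand, and polymerases delta and epsilon extend it while held by the sliding clamp PCNA. Ribonucleotide reductase, thymidylate synthase and thymidine kinase supply the deoxynucleotides. Many of these genes are known to be transcribed in a burst at the G1 to S transition under E2F factors, so in a mixed population their mRNA level can follow the share of cells in S phase. In bulk samples a change in that share and a change in mRNA per cell cannot be told apart.

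Promoter sequence was available for 37 of the 45 genes in the RefSeq table for GRCm38.p6, as 250 bases before and 50 bases after each annotated start. The letters of an E2F core (searched on either strand as TTCCCGC, then as TTCGCGC, then as TTGGCGC and lastly as TTGCCGC) were in this window in 24 of the 37 genes (64.9%), against 1641 of 8128 tested genes with a promoter (20.2%) and 2936 of all 27025 genes with one (10.9%). The NF-Y core CCAAT was in 23 of the 37 (62.2%), against 43.9% of tested genes. The CHR letters TTTGAA or TTCGAA, a motif of genes expressed in mitosis, were in 7 (18.9%), against 16.2%. A gene with several promoters was counted if any of them held the letters, overlapping matches were each counted, and a match is a run of letters and not a measured binding site.

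The letters were not more frequent in the genes that passed the test below. They were in 3 of these 6 genes (50.0%), against 21 of the 31 other genes with a promoter (67.7%). The bases upstream of the start are printed for 4 genes, 5′ to 3′ in the direction of the gene, with the E2F core letters in capitals. All 4 promoters shown hold the letters. Orc1, at chr4:108579204-108579453 on the plus strand, is shown as the gene with the lowest adjusted p below, and its match lies 27 bases before the start. Mcm6, at chr1:128359706-128359955 on the minus strand, had 4 matches in overlapping pairs, between 43 and 109 bases before the start. Rrm1, at chr7:102441445-102441694 on the plus strand, is a gene of deoxynucleotide synthesis, with a match 67 bases before the start. Of the other genes in that role group, Rrm2 has a match 235 bases before the start. The promoters listed for Tk1 and Tyms do not hold the letters. Orc4, at chr2:48949268-48949517 on the minus strand, holds the letters 140 bases before the start, although its leukemic values were the lower ones. The other listed promoters of Orc4 do not hold the letters.
Orc1: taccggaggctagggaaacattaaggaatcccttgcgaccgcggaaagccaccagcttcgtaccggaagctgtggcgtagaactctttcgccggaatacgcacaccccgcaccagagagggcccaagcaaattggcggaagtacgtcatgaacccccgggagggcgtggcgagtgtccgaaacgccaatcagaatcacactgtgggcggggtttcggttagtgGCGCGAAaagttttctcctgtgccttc
Mcm6: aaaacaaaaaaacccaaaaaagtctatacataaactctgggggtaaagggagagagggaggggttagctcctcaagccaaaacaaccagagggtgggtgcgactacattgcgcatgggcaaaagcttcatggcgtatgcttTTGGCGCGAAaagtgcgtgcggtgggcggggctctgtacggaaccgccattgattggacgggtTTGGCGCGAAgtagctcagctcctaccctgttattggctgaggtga
Rrm1: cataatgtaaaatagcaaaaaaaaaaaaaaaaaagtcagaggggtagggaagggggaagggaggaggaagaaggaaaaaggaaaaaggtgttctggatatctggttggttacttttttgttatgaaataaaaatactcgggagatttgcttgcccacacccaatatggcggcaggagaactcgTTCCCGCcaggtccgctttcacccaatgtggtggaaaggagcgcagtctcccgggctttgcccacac
Orc4: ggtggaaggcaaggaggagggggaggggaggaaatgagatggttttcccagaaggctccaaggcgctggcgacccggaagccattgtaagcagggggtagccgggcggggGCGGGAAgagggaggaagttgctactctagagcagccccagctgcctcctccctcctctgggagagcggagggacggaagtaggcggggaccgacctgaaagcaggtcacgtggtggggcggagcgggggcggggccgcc

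The leukemic samples tended to have more replication mRNA, but the samples within each group differed widely and most genes did not pass the test. Of the 45 genes, 6 rose in leukemic samples at an adjusted p under 0.05 and 0 fell (limma on log2(FPKM + 1), two-sided, Benjamini-Hochberg over the 10541 genes). The 6 were Orc1, Orc2 and Orc6 of the origin recognition complex, the loaders Cdc6 and Cdt1, and the polymerase alpha subunit Pola2. Their share, 13.3%, compares with 8.47% of all tested genes that rose and 14.7% called in either direction, so the count of calls by itself says little about the list. At an unadjusted p under 0.05 there were 19 of 45, of which 1, Orc4, was lower, against 34% of all tested genes in either direction.

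What the genes shared was direction. The log2 fold change, leukemic minus preleukemic, was above 0 in 43 of the 45, against 47.9% of all tested genes, and its median was 0.47 (range -0.24 to 1.11), against -0.02 over all tested genes. With FPKM rescaled to a common sum, 40 of the 45 were above 0. All 3 leukemic samples were above all 4 preleukemic samples in 13 genes (28.9%, against 14.9% of tested genes), all were below in 1, Orc4 (against 17.1%), and the groups overlapped in 31. The direction was not particular to the 45 genes. As deposited, the log2 fold change was above 0 in 22 of 23 mitosis genes (median 0.57) and 28 of 34 other replication factors (median 0.32). It was above 0 in 18 of 22 genes of S phase control (median 0.29) and 29 of 35 other genes of nucleotide synthesis (median 0.26). Most of the 45 genes went up and down together from sample to sample, so they are not 45 separate observations of a difference between the groups. The median standard error of their log2 fold changes was 0.21, against 0.13 over all tested genes.

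**Figure D1:**
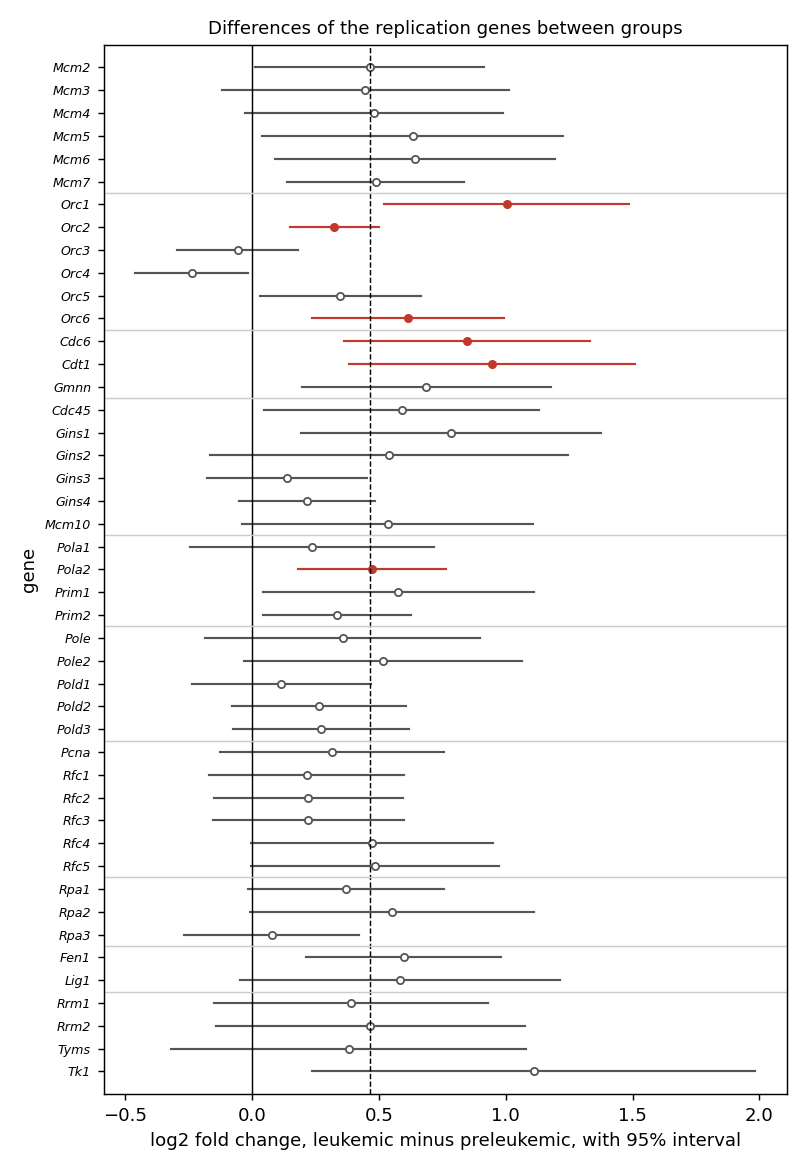
Log2 fold change (leukemic minus preleukemic, on log2(FPKM + 1)) of the 45 genes, ordered by role from the MCM helicase at the top to deoxynucleotide synthesis at the bottom, with 95% intervals from limma. Filled red points are the 6 genes with an adjusted p under 0.05, and the dashed line is the median of the 45, 0.47. As deposited, the points lie right of 0 in all but 2 genes, Orc3 and Orc4 (with FPKM rescaled to a common sum, in all but 5), and 26 intervals hold 0.

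The 6 calls depended on single libraries. Without leukemic 1, 2 or 3 there were 2, 1 and 6 calls. Without preleukemic 1, 2, 3 or 4 there were 4, 0, 0 and 0. In the last 3 fits 11, 17 and 12 of the 45 had an unadjusted p under 0.05. Of all 10541 tested genes, 3001, 2808 and 2648 did. Over the whole table the number of called genes also fell, from 1553 to 443, 271 and 149 without preleukemic 2, 3 and 4. The median log2 fold change of the 45 stayed between 0.30 and 0.59 when any 1 library was left out.

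The MCM helicase, the ring of 6 subunits that unwinds DNA at the fork, had log2 fold changes between 0.45 and 0.64, and none of the 6 passed the test (4 had an unadjusted p under 0.05). Mcm6 had the largest difference, with 222, 135 and 129 FPKM in leukemic samples 1 to 3 and 126, 76.2, 112 and 93.7 FPKM in preleukemic samples 1 to 4. The groups did not overlap, but leukemic 3 stood only just above preleukemic 1, and the log2 fold change of 0.64 (SE 0.24) had an adjusted p of 0.105. Mcm7 had the highest level of the ring, with 206, 161 and 153 FPKM against 146, 102, 125 and 121 FPKM. Its groups did not overlap either (log2 fold change 0.49, SE 0.15, adjusted p = 0.0672). Mcm2, Mcm3, Mcm4 and Mcm5 each overlapped between the groups, with adjusted p from 0.127 to 0.232. The 6 subunits, which enter the ring in equal number, kept to similar levels: the highest was 1.99 ± 0.138 times the lowest in leukemic samples (SD, n = 3) and 1.94 ± 0.165 times in preleukemic samples (SD, n = 4).

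The origin recognition complex, which marks origins and recruits the other loaders, was the most divided of the groups, with 3 of 6 subunits higher and 2 with log2 fold changes below 0. Orc1 (chromosome 4, 108579454 to 108614831, GRCm38), the subunit known to be made and degraded with the cell cycle, measured 9.5, 10.3 and 7.96 FPKM in leukemic samples 1 to 3 and 6.25, 3.05, 3.95 and 3.63 FPKM in preleukemic samples 1 to 4. Every leukemic sample was above every preleukemic one, with preleukemic 1 nearest. The means were 9.25 ± 1.19 FPKM (SD, n = 3) and 4.22 ± 1.40 FPKM (SD, n = 4), with a log2 fold change of 1.0 (SE 0.21, limma adjusted p = 0.0236). Orc1 was also the lowest of the 45 genes in mean level, and its lowest value, in preleukemic 2, amounts to about 43.9 fragments per kilobase of transcript, a counting error of 15.1% for 1 kilobase.

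Orc2 (chromosome 1, 58462771 to 58505109), a core subunit, measured 27.7, 28.6 and 27.2 FPKM against 22.8, 21.8, 23.1 and 20.5 FPKM. This was the tightest of the called differences, with values close together in each group and a gap between them (log2 fold change 0.33, SE 0.07, adjusted p = 0.0313). Orc6 (chromosome 8, 85299632 to 85308279), the smallest and most loosely bound subunit, measured 41.1, 34.8 and 27.4 FPKM against 25.7, 18.3, 22.9 and 21.1 FPKM. Leukemic 3 was only slightly above preleukemic 1, and Orc6 passed with an adjusted p of 0.0452 (log2 fold change 0.61, SE 0.16).

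The core subunits Orc3, Orc4 and Orc5 did not pass. Each of them is listed at a locus shared with another gene, unlike Orc1, Orc2 and Orc6, so their values are less certain. Orc3 was flat, at 12.0 ± 1.68 FPKM (SD, n = 3) against 12.4 ± 0.401 FPKM (SD, n = 4), with a 95% interval for the log2 fold change from -0.30 to 0.18. Orc4 measured 14.0, 16.4 and 16.6 FPKM against 17.3, 20.6, 18.2 and 18.4 FPKM. It was the only one of the 45 whose leukemic values all lay below the preleukemic ones (log2 fold change -0.24, 95% interval -0.46 to -0.01, adjusted p = 0.129). Orc5 was higher in all leukemic samples, at 15.5 ± 1.38 against 12.0 ± 1.99 FPKM, with an adjusted p of 0.12. The ratio of Orc1 to Orc2 was 0.343, 0.360 and 0.292 in leukemic samples and 0.274, 0.140, 0.171 and 0.177 in preleukemic samples, which did not overlap. This and the other ratios between genes were chosen after the values were seen and are given without a test.

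The licensing factors, which load the ring and limit loading to once per cycle, had the largest median difference of the role groups, 0.85 over 3 genes. All leukemic samples were above all preleukemic ones in the 3, against 14.9% of all tested genes. The 3 are not separate observations, since leukemic 1 was the highest and preleukemic 2 the lowest sample in each. Cdc6 (chromosome 11, 98907889 to 98923942), the ATPase that joins ORC to load MCM, measured 20.2, 17.9 and 14.7 FPKM against 13.2, 6.77, 9.36 and 8.70 FPKM. It rose by 0.85 on the log2 scale (SE 0.21, adjusted p = 0.0374). Cdt1 (chromosome 8, 122568015 to 122573130), which brings MCM to the origin, measured 62.6, 42.5 and 35.2 FPKM against 32.2, 17.9, 22.0 and 22.4 FPKM. It rose by 0.95 (SE 0.24, adjusted p = 0.0412), although leukemic 3 was nearer to preleukemic 1 than to leukemic 1.

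Gmnn encodes geminin, the inhibitor that binds Cdt1 after origins have fired. It measured 115, 83.2 and 74.9 FPKM against 69.9, 41.6, 62.1 and 51.2 FPKM, again without overlap, and did not pass (log2 fold change 0.69, SE 0.21, adjusted p = 0.0673). The ratio of Cdt1 to Gmnn was 0.547, 0.511 and 0.470 in leukemic samples and 0.461, 0.431, 0.354 and 0.438 in preleukemic samples. The lowest leukemic ratio was just above the highest preleukemic one.

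**Figure D2:**
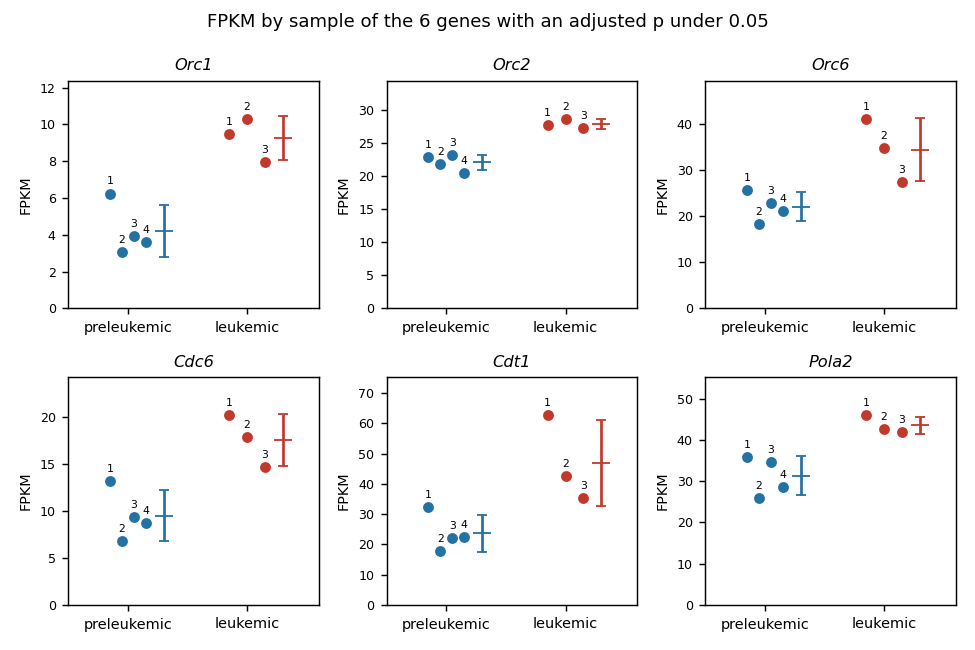
FPKM of the 6 genes with an adjusted p under 0.05 in each sample, with 1 point per sample and the mean ± SD of each group. Leukemic points lie above all preleukemic points in every panel, and the gap is narrow in Orc6 and Cdt1 and clear in Orc2.

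The helicase activators had log2 fold changes from 0.14 to 0.78 and none of the 6 passed (2 had an unadjusted p under 0.05). Gins1, a subunit of the 4-part GINS complex, measured 57.0, 36.7 and 29.6 FPKM against 28.6, 16.5, 25.4 and 21.5 FPKM. Leukemic 3 stood barely above preleukemic 1 (log2 fold change 0.78, SE 0.25, adjusted p = 0.0772). Gins2, the subunit with the highest mean among the activators, measured 58.9, 37.5 and 33.5 FPKM against 39.0, 16.9, 32.0 and 31.3 FPKM, and preleukemic 1 was above leukemic 2 and 3. The locus listed for Gins2 is shared with its neighbour Gse1. Its fold change of 0.54 (SE 0.30) had an adjusted p of 0.244. Gins3 and Gins4 moved less, with log2 fold changes of 0.14 (95% interval -0.18 to 0.45) and 0.22 (-0.05 to 0.49), although GINS holds its 4 subunits in equal number. Cdc45, which joins GINS at the ring, did not overlap between the groups (31.9 ± 6.41 against 21.2 ± 5.83 FPKM, adjusted p = 0.123), and Mcm10, which helps to start the helicase, did (20.0 ± 5.56 against 13.5 ± 3.93 FPKM, adjusted p = 0.169).

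Polymerase alpha-primase lays down the short primer that opens each Okazaki fragment. Its regulatory subunit Pola2 (chromosome 19, 5940543 to 5964206) measured 46.0, 42.7 and 42.0 FPKM against 36.0, 26.0, 34.8 and 28.6 FPKM. All leukemic values lay above the preleukemic ones, and Pola2 passed narrowly (log2 fold change 0.47, SE 0.13, adjusted p = 0.0463). Its catalytic partner Pola1 overlapped, at 28.3 ± 7.70 against 23.6 ± 4.50 FPKM, with a log2 fold change of 0.24 (95% interval -0.24 to 0.72).

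The primase subunits did not pass. Prim1, which makes the RNA primer, measured 70.9, 50.3 and 45.7 FPKM against 47.7, 27.1, 42.4 and 31.6 FPKM, with preleukemic 1 above leukemic 3 (log2 fold change 0.58, adjusted p = 0.124). Prim2, the large subunit of primase, had the highest mean of the 4, with 57.0, 66.3 and 71.9 FPKM against 53.7, 44.1, 59.3 and 48.9 FPKM. It departed from the order of samples seen in most of the 45 genes, since leukemic 3 was the highest and leukemic 1 the lowest of the leukemic samples (log2 fold change 0.33, adjusted p = 0.11).

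The polymerases that extend the strands and the clamp that holds them had the lowest medians of the role groups, a log2 fold change of 0.27 both for polymerases epsilon and delta and for the clamp with its loader. None of the 5 genes for polymerases epsilon and delta, none of the 6 for the clamp and its loader and none of the 3 for RPA passed, none had an unadjusted p under 0.05, and all 14 overlapped. Pole2, a subunit of the leading strand polymerase epsilon, had the largest difference of the polymerase genes (log2 fold change 0.52, adjusted p = 0.166), with 25.5, 17.7 and 15.6 FPKM against 16.5, 9.45, 16.2 and 11.6 FPKM. Pold1, the catalytic subunit of the lagging strand polymerase delta, had the highest level of them, with 69.8, 50.0 and 48.4 FPKM against 59.2, 45.2, 50.3 and 50.0 FPKM. Only leukemic 1 was above the preleukemic range of Pold1 (log2 fold change 0.12, 95% interval -0.24 to 0.47). Pole, Pold2 and Pold3 had log2 fold changes from 0.26 to 0.36 and adjusted p from 0.236 to 0.306.

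Pcna, the sliding clamp, was the most abundant of the 45, with 457, 372 and 323 FPKM against 384, 232, 336 and 290 FPKM. Preleukemic 1 exceeded leukemic 2 and 3, and the groups differed by a log2 fold change of 0.32 (SE 0.19, adjusted p = 0.271). Of the 5 subunits of the clamp loader RFC, Rfc1, Rfc2 and Rfc3 each had a log2 fold change of 0.22, and Rfc4 and Rfc5 had 0.47 and 0.48 (both with an adjusted p of 0.15). Rfc5 measured 58.0, 36.7 and 39.7 FPKM against 39.0, 23.3, 32.9 and 31.1 FPKM, with leukemic 1 alone well above the rest.

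RPA coats the single strands that the helicase exposes. Its large subunit Rpa1 measured 130, 92.3 and 86.7 FPKM against 89.4, 65.1, 81.5 and 78.2 FPKM, and Rpa2 measured 105, 58.8 and 54.5 FPKM against 56.4, 38.0, 49.8 and 46.1 FPKM. In both, leukemic 1 stood apart and preleukemic 1 was above leukemic 3 (adjusted p = 0.159 for Rpa1 and 0.151 for Rpa2). Rpa3, the smallest subunit, hardly differed, at 81.1 ± 14.7 FPKM (SD, n = 3) against 76.3 ± 9.04 FPKM (SD, n = 4), with a log2 fold change of 0.08 (95% interval -0.27 to 0.42).

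Lagging strand fragments are trimmed by the flap endonuclease Fen1 and sealed by DNA ligase 1. Fen1 measured 87.8, 75.3 and 62.7 FPKM against 58.6, 38.6, 50.6 and 50.0 FPKM, without overlap, and missed the threshold narrowly (log2 fold change 0.60, SE 0.16, adjusted p = 0.0503). Lig1 measured 123, 79.7 and 69.9 FPKM against 81.9, 40.1, 62.4 and 57.3 FPKM, where preleukemic 1 was above leukemic 2 and 3 (log2 fold change 0.58, SE 0.27, adjusted p = 0.174).

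Deoxynucleotide synthesis held the gene with the largest fold change of the 45, but none of its 4 genes passed (1, Tk1, had an unadjusted p under 0.05). Tk1, the thymidine kinase of the S phase salvage pathway, measured 117, 65.9 and 52.9 FPKM against 54.4, 19.7, 37.5 and 32.4 FPKM. Its highest value was 5.95 times its lowest, the widest span of the 45, and preleukemic 1 was above leukemic 3. The table lists Tk1 at the same locus as its neighbour Afmid, which lies on the opposite strand. The log2 fold change of 1.11 had a 95% interval from 0.24 to 1.98 and an adjusted p of 0.0859. Rrm2, the small subunit of ribonucleotide reductase that is made in S phase, measured 216, 171 and 129 FPKM against 156, 79.7, 142 and 123 FPKM, with broad overlap (log2 fold change 0.47, adjusted p = 0.244).

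The large reductase subunit Rrm1 (111 ± 30.2 against 84.2 ± 19.5 FPKM) and thymidylate synthase, Tyms (24.0 ± 10.8 against 17.6 ± 4.74 FPKM), had adjusted p of 0.267 and 0.395. The ratio of Rrm2 to Rrm1 stayed near the same value, 1.56 ± 0.0978 (SD, n = 3) against 1.48 ± 0.126 (SD, n = 4). The ratio of Tk1 to Tyms, which stand for salvage of thymidine and its synthesis from dUMP, was 3.23, 3.41 and 3.25 in leukemic samples and 2.32, 1.53, 1.94 and 2.2 in preleukemic samples. These ratios did not overlap, and the 3 leukemic ones lay close together although the level of Tk1 itself varied widely among them.

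Much of the variation in the 45 genes lay between samples of the same group. Leukemic 1 had the highest value of the 7 samples in 39 of the 45 genes (86.7%, against 26.1% of all tested genes), and preleukemic 2 had the lowest in 41 (91.1%, against 16.9%). Within the preleukemic group, preleukemic 1 was the highest in 40 genes, and within the leukemic group, leukemic 3 was the lowest in 37. As a result the groups met in the middle: leukemic 3 was above preleukemic 1 in 16 of the 45 genes, with a median log2 ratio of -0.06, and leukemic 2 was above preleukemic 1 in 25, with a median of 0.05. The other 10 pairs of a leukemic and a preleukemic sample had the leukemic sample higher in between 32 and 44 genes.

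**Figure D3:**
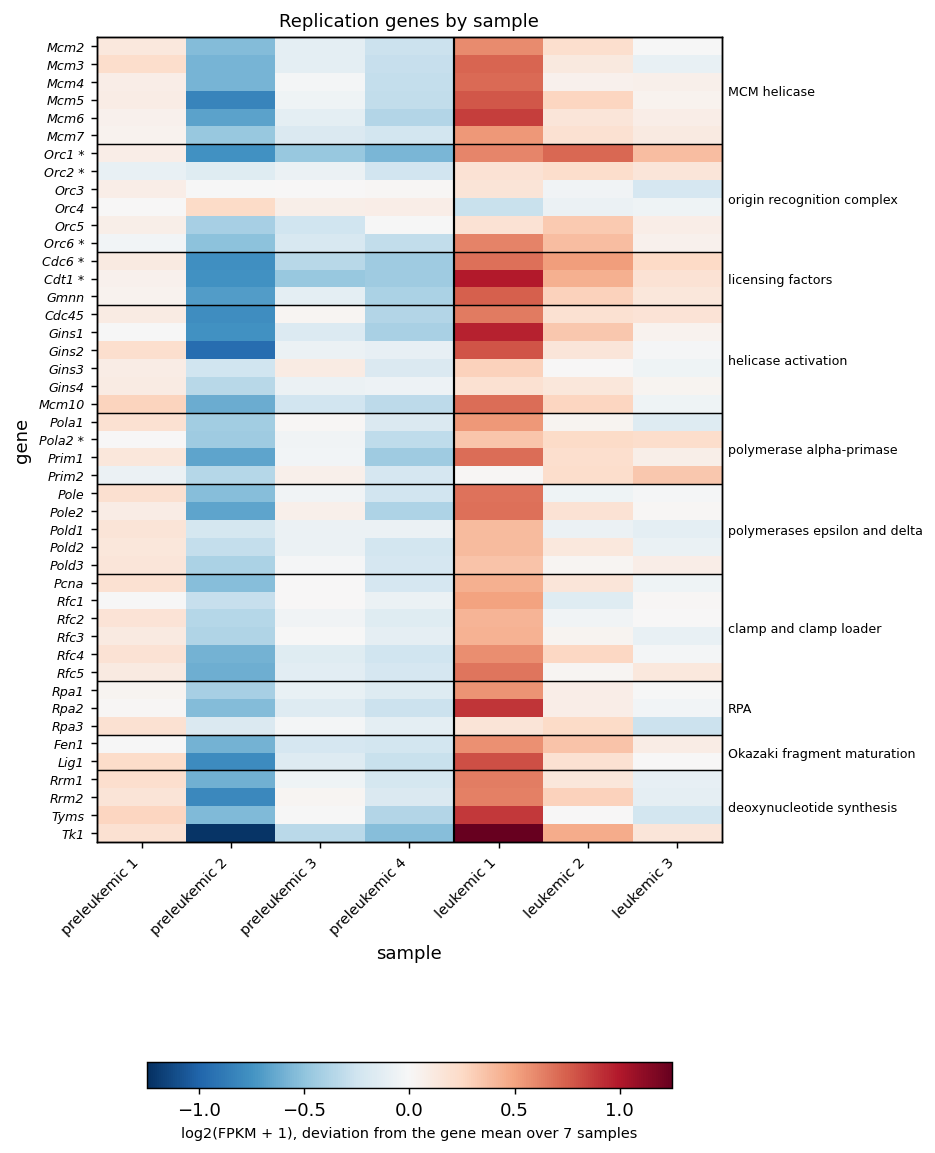
Level of the 45 genes (rows, by role) in the 7 samples (columns), as the deviation of log2(FPKM + 1) from the gene's mean over all samples, red above and blue below, with an asterisk at the 6 called genes. The column of leukemic 1 is red in nearly every row and that of preleukemic 2 blue, while leukemic 2 and 3 and preleukemic 1 and 3 are pale in most rows.

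Summed over the 45 genes, the level was 3828, 2840 and 2526 FPKM in leukemic samples 1 to 3 and 2732, 1710, 2374 and 2118 FPKM in preleukemic samples 1 to 4. As a share of all FPKM these are 0.751%, 0.526% and 0.498% against 0.594%, 0.382%, 0.504% and 0.450%. Leukemic 1 was the highest on both scales, but leukemic 3 was below preleukemic 1 on both. By share, leukemic 2 was below preleukemic 1 as well, and leukemic 3 was also below preleukemic 3. Because the FPKM values summed to between 507355 and 539887 in leukemic samples and between 448022 and 471447 in preleukemic samples, rescaling to a common sum took the median over all tested genes from -0.02 to -0.17 on the log2 scale. Under that scaling the median of the 45 was 0.30, still 0.47 above the median of all genes, but the log2 fold changes of Gins3, Pold1 and Rpa3 went below 0. The calls were then 3 higher (Orc1, Cdc6 and Cdt1) and 1 lower, Orc4 (log2 fold change -0.39, limma adjusted p = 0.0292).

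The genes differed in how far they spanned across samples, measured as the highest over the lowest of the 7 FPKM values. After Tk1 the span was widest in Cdt1, Gins2, Gins1 and Orc1, at 3.49, 3.48, 3.45 and 3.38 times, and narrowest in Orc3, Orc2 and Rpa3, at 1.32, 1.4 and 1.43 times. The 45 genes lay on 14 chromosomes, with the most on chromosome 5 (8 genes, median log2 fold change 0.35, none called) and chromosome 8 (6 genes, median 0.58, 2 called).

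The extremes of the order were the same in 23 genes of mitosis (spindle, kinetochore, cyclin B and similar genes, which act after replication). Their sums were 2104, 1740 and 1107 FPKM in leukemic samples and 1303, 781, 1244 and 1118 FPKM in preleukemic samples, with leukemic 3 below preleukemic 1, 3 and 4. Preleukemic 2 was the lowest of 7 in 22 of the 23 genes and leukemic 1 the highest in 21. Of the 23, 22 had a log2 fold change above 0, with a median of 0.57, and 1 passed (4.35%, against 8.47% of all tested genes that rose). The gene that passed was Mki67, the antigen of proliferating cells, with 162, 165 and 132 FPKM against 103, 68.1, 108 and 89.1 FPKM. It rose without overlap (log2 fold change 0.74, SE 0.17, adjusted p = 0.0316), and leukemic 2 and not leukemic 1 was the highest. The count of 1 went to 5 without leukemic 3 and to 0 without leukemic 1 (where Mki67 had a log2 fold change of 0.69) or without preleukemic 2, 3 or 4. Without leukemic 2 the count was 1 as well, but Mki67 (log2 fold change 0.68) no longer passed and the call was another gene, which was lower.

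Of 34 other replication factors (fork protection, kinase, chromatin assembly, topoisomerase, RNase H2 and similar genes), 4 rose (11.8%, against 8.47% of all tested genes) and 1 fell (against 6.26% of all), with a median log2 fold change of 0.32. After rescaling to a common sum 1 rose and 3 fell, so the balance of directions among the calls depended on the scaling. Recql4, a helicase that acts at initiation, measured 9.41, 6.5 and 7.73 FPKM against 5.27, 3.39, 3.80 and 3.27 FPKM and rose by 0.85 (adjusted p = 0.0246). Rnaseh2a and Rnaseh2c, subunits of the enzyme that removes ribonucleotides from DNA, rose by 0.47 and 0.48 (adjusted p = 0.0222 and 0.0437), and Pole3, a histone-fold subunit of polymerase epsilon, by 0.47 (adjusted p = 0.0467). The gene that fell was Pold4, the smallest subunit of polymerase delta, named here after its values were seen. It measured 113, 111 and 96.4 FPKM against 138, 125, 145 and 163 FPKM (log2 fold change -0.41, adjusted p = 0.0459), while Pold1, Pold2 and Pold3 of the same enzyme had log2 fold changes above 0.

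Of the other genes of nucleotide synthesis, 29 of 35 had a log2 fold change above 0, with a median of 0.26. The genes that passed went both ways, among them the alternative forms of IMP dehydrogenase. Of 35 genes, 3 rose and 3 fell (8.57% each way, against 8.47% of all tested genes that rose and 6.26% that fell). After rescaling to a common sum 2 rose and 6 fell, and without preleukemic 1 there were 3 that rose and 0 that fell. IMP dehydrogenase makes the precursor of guanine nucleotides. Its form Impdh2, known to increase in proliferating cells, measured 198, 128 and 129 FPKM in leukemic samples and 85.8, 73.5, 86.2 and 75.6 FPKM in preleukemic samples, and rose by 0.88 (SE 0.16, adjusted p = 0.0189). The other form, Impdh1, measured 119, 89.7 and 70.7 FPKM against 177, 147, 160 and 190 FPKM, and fell by 0.87 on the log2 scale (SE 0.18, adjusted p = 0.0229). The groups did not overlap in either gene, and the ratio of Impdh2 to Impdh1 was 1.64 ± 0.198 (SD, n = 3) against 0.480 ± 0.0603 (SD, n = 4), so the more abundant form differed between the groups.

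Rrm2b, the small subunit of ribonucleotide reductase that p53 induces and that serves cells outside S phase, measured 4.93, 13.6 and 11.2 FPKM against 19.4, 22.6, 26.6 and 30.1 FPKM. It fell by 1.31 on the log2 scale (SE 0.31, adjusted p = 0.0336), larger in size than the log2 fold change of any of the 45, with leukemic 1, the sample with the most Rrm2, the lowest. The ratio of Rrm2 to Rrm2b was 43.9, 12.5 and 11.6 in leukemic samples and 8.07, 3.53, 5.36 and 4.10 in preleukemic samples. Dck, the deoxycytidine kinase of the salvage pathway, measured 88.1, 163 and 112 FPKM against 184, 197, 195 and 209 FPKM and fell by 0.74 (SE 0.19, adjusted p = 0.0425).

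The list of 22 genes that control entry into S phase had 5 that rose (22.7%, against 8.47% of all tested genes) and 0 that fell, with a median log2 fold change of 0.29, and 10 with an unadjusted p under 0.05 (against 34% of all). After rescaling to a common sum 1 rose and 1 fell, a pseudocount of 0.1 or quantile scaling each added 1 that fell, and without preleukemic 2 the only call was 1 that fell. E2f1, a transcription factor for replication genes, measured 19.9, 14.7 and 14.6 FPKM against 12.3, 7.49, 10.2 and 8.65 FPKM and rose by 0.71 (adjusted p = 0.0411). Its dimer partner Tfdp1 rose by 0.46 (adjusted p = 0.0226), Cks1b, a subunit of cyclin-dependent kinase complexes, by 0.70 (adjusted p = 0.0467), and Cul4a, scaffold of a ubiquitin ligase that removes Cdt1, by 0.52 (adjusted p = 0.0289). In these 4, picked because they passed, all leukemic samples were above all preleukemic ones (against 14.9% of all tested genes). Cdkn1a, which encodes the p53-induced kinase inhibitor p21 and is named after its values were seen, had the largest difference of the list but did not pass (log2 fold change -1.43, SE 0.39, adjusted p = 0.051). It measured 4.03, 3.27 and 5.12 FPKM against 10.6, 28.1, 11.3 and 7.41 FPKM. Cdkn1a was highest in preleukemic 2, with the lowest replication sum, but lowest of its group in preleukemic 4, with the next lowest sum. Without preleukemic 2, at most 1 gene of each of the 4 lists above passed (limma), and without preleukemic 3 or 4 none did. In these 3 fits, 2648 to 3001 of all 10541 tested genes had an unadjusted p under 0.05. Of the 34 other replication factors 11 to 12 did, of the 35 nucleotide synthesis genes 11 to 18, and of the 22 S phase control genes 8 to 9. Of the 23 mitosis genes 2 to 5 did, in each fit a smaller share than of all tested genes.

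**Figure D4:**
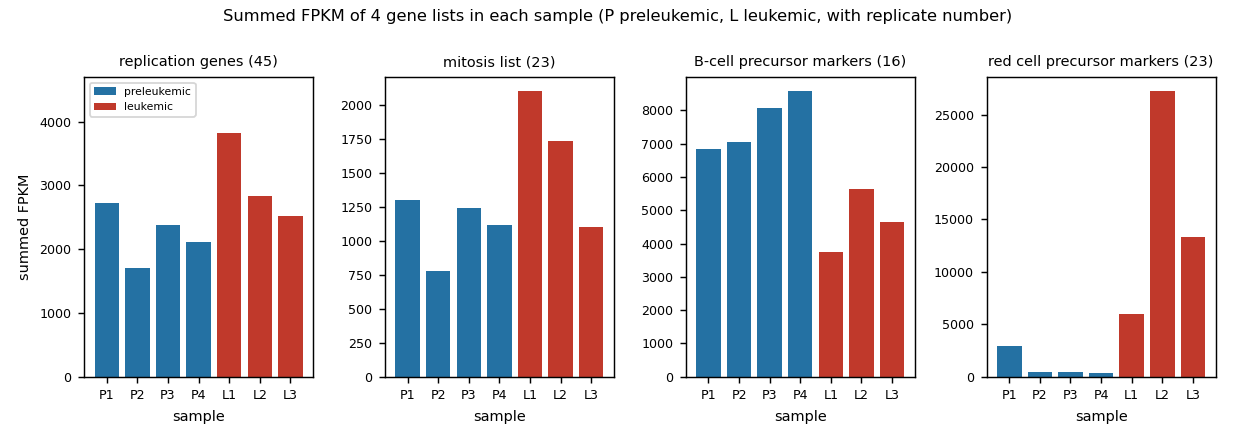
Summed FPKM per sample of the 45 replication genes, the mitosis genes, the B-cell precursor markers and the red cell precursor markers. The replication sum is highest in leukemic 1, at 3828 FPKM, and lowest in preleukemic 2, at 1710 FPKM, and the red cell sum is highest in leukemic 2, at 27224 FPKM.

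The samples also differed in markers of the cell types a sorted spleen fraction could hold. All 22 tested markers of red cell precursors, which also divide rapidly, were higher in leukemic samples, with sums of 5949, 27224 and 13332 FPKM against 2900, 404, 401 and 385 FPKM. The globin gene Hbb-bs was listed at the floor of the table in all 7. Leukemic 1, with the highest replication sum, had the lowest red cell sum of its group, whereas preleukemic 1 had the highest of both sums in its group. Of 16 B-cell precursor markers, 4 fell and 0 rose (against 6.26% and 8.47% of all tested genes). The log2 fold change was below 0 in 15 (median -0.60), against 5496 of all 10541 tested genes. In 10 markers all leukemic samples lay below all preleukemic ones (against 17.1% of all). An unadjusted p under 0.05 was reached by 12 (against 34% of all). Their sums were 3758 to 5626 FPKM against 6850 to 8570 FPKM. Enpep, which encodes BP-1, measured 19.1 to 102 FPKM against 134 to 210 FPKM, and was lowest in leukemic 1. Of tested markers, 7 of 12 for macrophages, 6 of 12 for neutrophils and 0 of 9 for T and NK cells passed as higher (against 8.47% of all). Of the T and NK cell markers, 3 had an unadjusted p under 0.05 (against 34% of all). Macrophage, neutrophil, and T and NK cell markers summed to 58.0 to 285, 1452 to 1805 and 15.7 to 82.3 FPKM in leukemic samples. In preleukemic samples the sums were 16.8 to 29.3, 152 to 882 and 18.6 to 26.4 FPKM. The part of these cell types in the differences of the replication genes was not tested.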

How the data were processed

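RNA-seq was performed on 7 samples of sorted BCP, 4 preleukemic and 3 leukemic, each from a separate mouse, and samples were assigned by their labels. The authors deposited FPKM values, 1 per gene and sample, with a floor of 0.01 FPKM. Per the labels, STAR 2.5.0b, bedtools 2.17.0, Cufflinks 2.2.1, Bowtie and DESeq2 were used with build mm10 (GRCm38), without their roles. FPKM are scaled for depth and length and are not counts, so no count model was used. The authors' filter (a sum of at least 10 over samples, here of FPKM) and threshold (0.05) were taken over.

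The groups were compared by limma 3.58.1 (R 4.3.3) on log2(FPKM + 1), using lmFit and eBayes with an intensity trend (no covariates, two-sided, Benjamini-Hochberg over 10541 genes). The fit was tested on simulated data in which genes varied independently. That test does not cover genes that vary together from sample to sample. Fold changes on this scale understate those of low genes. Per-sample values, ratios, motif counts and figures were made in Python 3.11.15. Table starts were shifted by 1 base to count from 1. RefSeq (GRCm38.p6) held 23138 of the symbols, 99.5% on the same chromosome.

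Depth was read from low values of 2243 genes with 1 transcript over 1500 bases (fragment length of 200 bases assumed). Between 75.1% and 79.6% of these values were whole numbers of fragments within 0.1, against 20% for even spacing, so depths are approximate. Counting errors cover counting only.

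The replication genes, the other gene lists, the markers and the tests were chosen with earlier results of these data known. Values in every sample are given for called genes and, in each role group, for the gene with the highest mean and the one with the largest difference. In the other lists up to 4 called genes are named, by size of difference. Some marker genes are not reported here singly, though they stay in the counts and sums of their lists. Pold4, Cdkn1a, Orc4 in every sample, and all ratios were added after the values were seen. Alternatives were a pseudocount of 0.1, no filter and a filter of 70, quantile, common-sum and median-of-ratios scaling, no intensity trend, sample weights, a replicate block, and leaving out each sample.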

Additional observations from a re-analysis of the deposited data

Results flagged for a closer look

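None of the 45 replication genes had an outlying preleukemic sample by Dixon's test. Of 66 named genes examined, 2 did, both of them red cell precursor markers that were far higher in preleukemic 1 than in the other 3 preleukemic samples. The gap from preleukemic 1 to the next sample, as a part of the group's range, was 0.969 for Hba-a1 (401 FPKM) and 0.963 for Alas2 (42.4 FPKM). Chance flags about 1 in 20 groups, and these genes are not independent. The group of 3 leukemic samples is too small for this test. Preleukemic 1 was also the highest of its group in 40 of the 45 replication genes. Without it, 4 of the 45 passed in place of 6, and their median log2 fold change was 0.57.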

How the results depend on the processing

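The median log2 fold change of the 45 genes kept its direction under all 16 alternatives. The count of 6 called genes became 2 without the filter, 1 with sample weights, 4 after rescaling to a common sum (3 higher and 1 lower), and 0 to 6 when 1 sample was left out. Of single calls, Orc1 held in 11 of 15 alternatives, Orc2, Cdc6 and Cdt1 in 8 of 16, Orc6 in 5 and Pola2 in 4. Over all genes, 1553 calls became 951 with an FPKM sum of at least 70, 2919 after rescaling to a common sum (683 higher and 2236 lower, against 893 and 660), and 149 to 1620 without 1 sample. Quantile scaling gave 754 higher and 907 lower. The other replication factors had 5 calls, and 2 without the filter, 3 at an FPKM sum of 70, 3 after quantile scaling, 2 without a trend, 3 with sample weights and 0 to 4 without 1 sample. Nucleotide synthesis had 6, and 8 after rescaling (2 higher and 6 lower) and 0 to 5 without 1 sample. S phase control had 5, and 3 without the filter, 2 after rescaling, 2 with sample weights and 0 to 5 without 1 sample. Mitosis had 1, and 0 with sample weights and 0 to 5 without 1 sample. Log2 fold changes crossed 0 after rescaling for Gins3 (-0.011), Pold1 (-0.047) and Rpa3 (-0.086), and without 1 sample for Orc3 (-0.15 to 0.032, above 0 without leukemic 3), Pold1 (-0.049 to 0.21, below 0 without leukemic 1) and Rpa3 (-0.021 to 0.23, below 0 without leukemic 2). A fit without 1 sample also has fewer samples, and the cause of the differences in counts was not tested. Depth limits Orc1 most, whose lowest value has a counting error of 15.1% for 1 kilobase.

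Replicate numbers did not mark pairs: the deviations of samples 1, 2 and 3 from their group means correlated with those of the same number at 0.0294, 0.0502 and -0.0925. With the replicate block, in which preleukemic 4 has no partner and adds nothing, 0 of all genes and 0 genes of each list passed. In that fit 23 of the 45 had an unadjusted p under 0.05, against 2429 of all 10541 tested genes.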
